A study of Mus musculus with 12 samples.

Results

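DNA replication and nucleotide supply genes are a group of 47 mouse genes whose products license replication origins, unwind and copy DNA, or make its building blocks. They were listed by symbol from their known function, at a time when earlier results of these data were known. All 47 were among the 24421 genes of the count table, and all 47 passed the filter on low counts that left 15220 genes for testing. RNA-Seq was carried out on 12 libraries of mouse embryonic fibroblasts (MEFs), 3 in each of 4 groups. The groups were Null MEFs and CRISPR TFEB/TFE3 DKO MEFs, each untreated or after 8 hr in 100 μM etoposide, which traps topoisomerase II on DNA and leaves breaks. The study compared the lines to learn what TFEB and TFE3, transcription factors of lysosomal and stress genes, contribute to the response to DNA damage.

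Null is the labels' name for the control genotype, and was taken here as the line that the paper calls wild type, which the labels do not state. In the DKO line CRISPR-Cas9 editing had inactivated both Tfeb and Tfe3. Each genotype was a single line, and the MEFs had been immortalized with SV40, so a difference between genotypes and a difference between these lines cannot be told apart. The sample titles name these libraries Control, the word untreated is used for them here, and the paper's methods name DMSO. The sources used here do not say whether the 3 replicates were separate cultures, and the p-values then measure only the spread between these libraries. The smallest library held 45577023 counts on genes and the largest 104120871. Levels are given as CPM, counts relative to each library's total, after scaling of library sizes by the TMM method.

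Before S phase, the origin recognition complex, Cdc6 and Cdt1 load the ring-shaped Mcm2 to Mcm7 helicase onto DNA, and geminin blocks Cdt1 once replication has begun. Cdc45, the GINS complex and Mcm10 turn the loaded helicase on, polymerase alpha with primase starts each strand, and polymerases delta and epsilon extend it with the clamp PCNA. Ribonucleotide reductase, thymidylate synthase and thymidine kinase supply the nucleotides, and many of these genes are transcribed at the G1/S boundary by E2F factors.

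The targeted genes were read first as a check of the labels. Tfeb was at 38.9, 39.2 and 42.1 CPM in the untreated Null libraries and at 4.60, 6.09 and 4.68 CPM in the untreated DKO libraries. After etoposide it was at 11.4, 10.2 and 10.4 CPM in Null and at 1.92, 1.61 and 2.20 CPM in DKO libraries, so that the genotypes did not overlap in either condition. Tfe3 was at 115, 109.9 and 114 CPM in the untreated Null libraries and at 94.1, 93.1 and 91.0 CPM in the untreated DKO libraries. After etoposide Tfe3 levels of the genotypes overlapped, at 68.1 to 69.6 CPM in Null and 63.4 to 71.2 CPM in DKO libraries. An edited gene can still be transcribed, and Tfe3 RNA does not check its label here.

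The cell type labels were checked against marker genes. Of 10 fibroblast markers, 8 or 9 were over 1 CPM in each library, with a summed level of 6789 to 6893 CPM in untreated Null, 3723 to 3849 CPM in etoposide-treated Null, 10977 to 11579 CPM in untreated DKO and 4691 to 5035 CPM in etoposide-treated DKO libraries. Vim or Fn1 was the most abundant marker, while Lum stayed under 1 CPM on average in every group and Thy1 was near 0 in DKO MEFs. Among 6 macrophage markers Cd14 alone exceeded 1 CPM, and Ptprc, Adgre1 and Itgam were at or near 0. Their summed level was 14.8 to 18.3 CPM in untreated and 65.9 to 67.1 CPM in treated Null libraries. In DKO libraries it was 6.29 to 7.22 CPM before and 9.39 to 12.1 CPM after etoposide. Summed epithelial markers reached 5.92 CPM and summed endothelial markers 2.89 CPM in any library. The fibroblast markers and Cd14 thus differed between the same groups that are compared here, and their part in the results was not tested.

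As a group, the 47 genes took a larger share of all counts after etoposide in both lines. Their share was 0.715, 0.694 and 0.696% in the untreated Null libraries and 0.919, 0.917 and 0.924% after etoposide. In DKO MEFs it was 0.664, 0.653 and 0.665% before and 0.952, 0.940 and 0.976% after treatment. Untreated and treated libraries did not overlap in either line. A share of counts is on the scale of library size alone, where the median of all genes was itself higher after etoposide, by log2 0.23 in Null and 0.41 in DKO MEFs, beside 0.33 and 0.59 for the median of the 47 genes. The mean log2 CPM of the 47 genes, which gives each gene the same weight, was 6.78 ± 0.02 and 6.998 ± 0.01 in Null MEFs and 6.74 ± 0.01 and 7.05 ± 0.03 in DKO MEFs (untreated and treated, SD, n = 3). In bulk RNA, a change in the share of cells in S phase and a change in RNA per cell cannot be told apart.

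**Figure D1:**
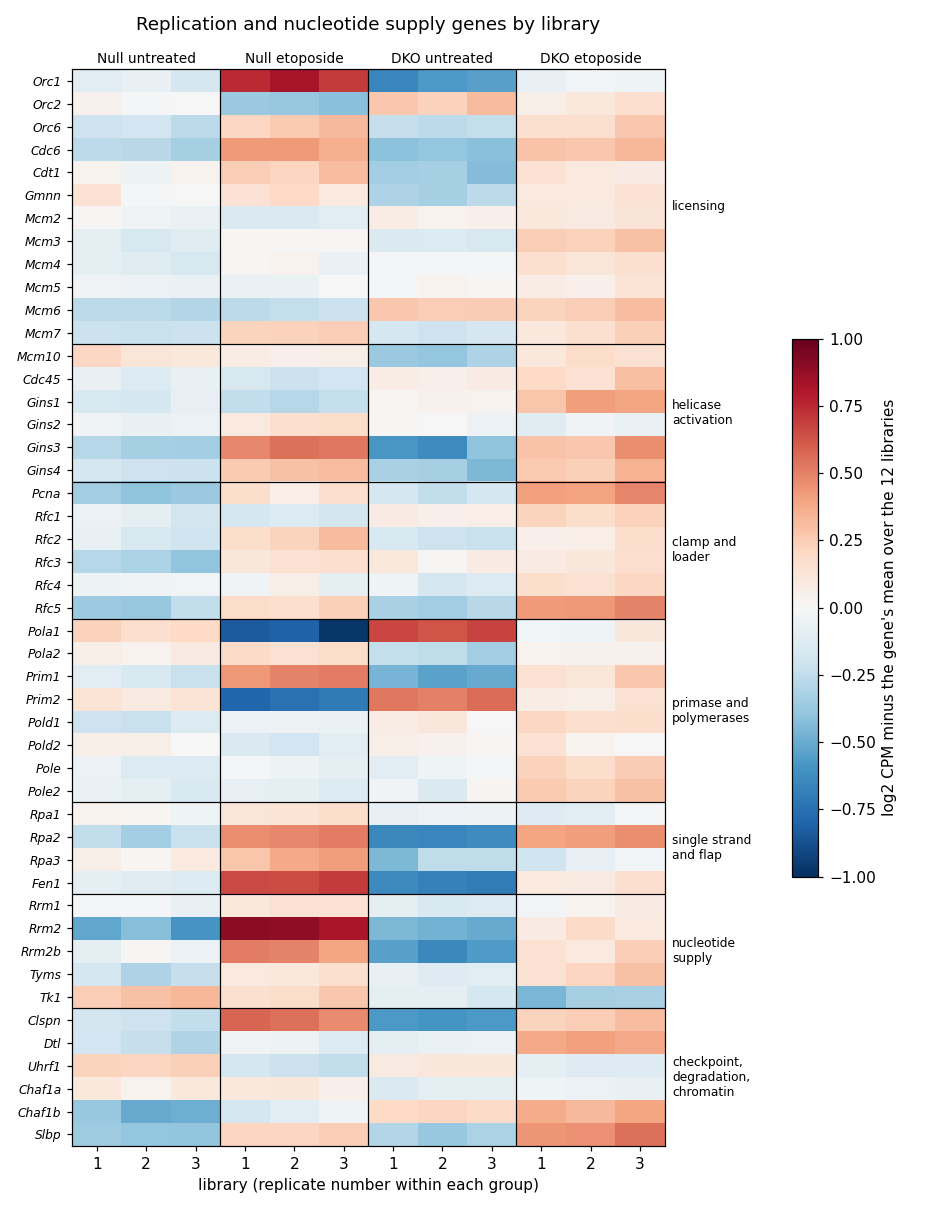
Log2 CPM of each of the 47 genes in each of the 12 libraries, as the difference from that gene's mean over all libraries (red higher, blue lower), with genes in rows by role and libraries in columns by group. Pola1 and Prim2 are lowest in the 3 Null libraries with etoposide, where Rrm2, Orc1 and Fen1 are highest.

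Tests were run for all 15220 genes with edgeR, and calls were made at a Benjamini-Hochberg adjusted p under 0.05. After etoposide, 29 of the 47 genes were higher and 9 lower in Null MEFs, and 9 were not past the threshold. Of all genes tested in this comparison 79.4% were past it, 42.3% higher and 37.2% lower, so that the 80.9% of the 47 genes past the threshold was near the background. In DKO MEFs 35 were higher and 5 lower, where 75.1% of all genes were called, 43.7% higher and 31.5% lower. The median log2 fold change of the 47 genes was 0.16 in Null and 0.32 in DKO MEFs, and that of all genes 0.07 and 0.14. By over 1.5-fold, 9 of the 47 genes rose and 2 fell in Null MEFs and 12 rose and 1 fell in DKO MEFs, beside 4382 rises and 2719 falls of that size among all 15220 genes in Null and 3725 and 2263 in DKO MEFs.

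Untreated DKO MEFs had 15 of the 47 genes higher and 18 lower than untreated Null MEFs, with a median log2 fold change of 0.00 against −0.02 for all genes. In this comparison 66.7% of all genes were called, 33.3% higher and 33.4% lower. After etoposide, 24 were higher and 17 lower in DKO than in Null MEFs, with a median of 0.09 against −0.00, and 74% of all genes were called, 37.5% higher and 36.6% lower. The interaction, which asks whether the response to etoposide differs between the lines, was above 0 for 23 genes and below 0 for 7. Of all genes 54% had an interaction past the threshold, 29.6% above and 24.4% below 0, and the median was 0.12 for the 47 genes and 0.05 for all. With 1 library left out the median of the 47 genes was 0.050 to 0.085 between treated lines and 0.080 to 0.14 in the interaction, and on the same 15220 genes 0.063 to 0.084 and 0.094 to 0.14.

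Replicates of the compared groups did not overlap for 39 of the 47 genes with etoposide in Null MEFs, 42 with etoposide in DKO MEFs, 36 between untreated genotypes and 40 between treated genotypes. The same held for 80.2, 76.1, 70.5 and 74.7% of all genes tested, respectively.

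Directions near 0 depended on the scaling. With library size alone in place of TMM, the median of all genes moved by 0.17 with etoposide in Null MEFs, 0.27 in DKO MEFs, −0.12 between untreated genotypes, −0.02 between treated genotypes and 0.10 in the interaction. The genes then called higher and lower were 37 and 4, 43 and 2, 7 and 26, 22 and 19, and 29 and 4, and over all genes the called split for etoposide went to 7806 higher and 4396 lower in Null MEFs and 9316 and 3004 in DKO MEFs. Between untreated genotypes it went to 3977 higher and 6393 lower, and in the interaction to 5734 above and 3055 below 0. With DESeq2's size factors, 32 of the 47 genes were higher and 5 lower with etoposide in Null MEFs, and 20 were higher and 20 lower between treated lines, where all genes gave 5072 higher and 6096 lower. The stricter filter gave 20 higher and 21 lower between treated lines. In the interaction, DESeq2's size factors put 3796 of all genes above and 4192 below 0 (median −0.016), and the DESeq2 Wald test 3937 and 4371, so that the excess above 0 over all genes turned, while the 47 genes gave 20 above and 8 below and 21 above and 9 below.

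Scaling moves all genes alike, and the distance between the median of the 47 genes and that of all genes depended on the filter and less on the libraries. It was 0.10 with etoposide in Null and 0.18 in DKO MEFs with the filter used here, −0.17 and 0.017 with no filter, and 0.24 and 0.29 with the stricter filter. Leaving out 1 library, with the filter set anew, gave 0.049 to 0.086 in Null and 0.14 to 0.18 in DKO MEFs, and with the same 15220 genes 0.081 to 0.11 and 0.15 to 0.19. The 6 libraries of a comparison alone gave 0.12 and 0.25, and 0.097 and 0.18 on those of the genes tested here that had counts in these libraries (15220 and 15208).

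Side by side, 26 genes were higher after etoposide in both lines and 4, Orc2, Pola1, Prim2 and Uhrf1, were lower in both. By line alone, 42.3% of all genes were higher and 37.2% lower in Null MEFs, and 43.7 and 31.5% in DKO MEFs. How all genes fell into joint classes of both lines was not counted, so the joint counts given here have no background. Mcm10, Cdc45 and Gins1 were called lower in Null and higher in DKO MEFs. Gmnn, Mcm5, Rfc1, Rfc4, Pole and Pole2 were called higher in DKO MEFs and were not past the threshold in Null MEFs, and Gins2, Rfc3 and Rpa1 were higher in Null MEFs and not past it in DKO MEFs. Mcm2 and Pold2 were called lower in Null MEFs alone and Tk1 in DKO MEFs alone. Mcm6 and Chaf1a were past the threshold in neither line. Of these, under library size alone, the falls of Mcm2, Mcm10, Cdc45 and Gins1 in Null MEFs and of Tk1 and Uhrf1 in DKO MEFs turned to values above 0 that were not past the threshold, and Orc2 in DKO MEFs was called higher. Pold2 was then at −0.018 in Null MEFs (edgeR adjusted p = 0.705), and Mcm2 and Pold2 were called higher in DKO MEFs (0.33 and 0.30). Gmnn, Mcm5, Rfc1, Rfc4, Pole, Pole2, Gins2, Rfc3, Rpa1, Mcm6 and Chaf1a were then called higher in both lines.

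**Figure D2:**
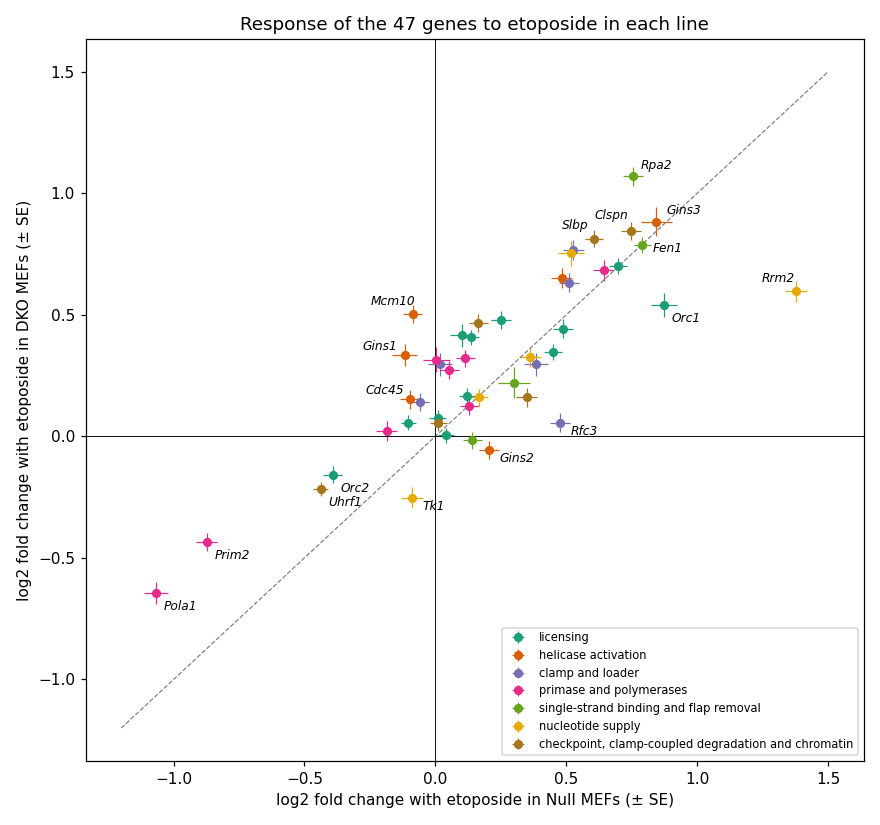
Log2 fold change with etoposide in Null MEFs (x axis) and in DKO MEFs (y axis) for each of the 47 genes, with standard errors as bars, colours for roles and a dashed line of equal response. Rrm2 lies furthest below the line (1.38 in Null, 0.60 in DKO MEFs), and Mcm10 (−0.09 and 0.50) and Gins1 (−0.12 and 0.33) lie above it.

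Promoter sequence was compared because many of these genes are known E2F targets. RefSeq windows of 250 bases before to 50 bases after a start site (GRCm38.p6) were found for 38 of the 47 genes, in 43 windows, and not for Gmnn, Mcm4, Gins1, Gins2, Gins4, Rfc2, Prim2, Pole and Rrm2b. The E2F letters searched on both strands were TTTCCCGC, TTTGGCGC, TTTCGCGC and TTTGCCGC, which can overlap each other on opposite strands. They occurred in 15 of the 43 windows (34.9%) and in 2.27% of 32851 windows of all genes. The CHR letters TTTGAA and TTCGAA occurred in 16.3% of the 43 windows and 19.2% of all, the E-box CACGTG in 13.95% (6 windows) and 7.15%, and CCAAT in 69.8% and 37.4%. A match is a run of letters and not a measured binding site.

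The windows printed are those whose match lies before the start site and whose 250 upstream bases hold no annotated exon, 4 of 10 for the E2F letters. They are shown as examples of the letters in place, and do not stand for the response of the 15 genes that have them. Of those 15, 10 rose, 2 fell (Pola1 and Uhrf1) and 3 were not past the threshold with etoposide in Null MEFs, and 11 rose and 2 fell in DKO MEFs. Of the 23 genes with a window and no such letters, 14 rose and 5 fell in Null and 17 rose and 2 fell in DKO MEFs. Of all genes 42.3% rose and 37.2% fell in Null and 43.7% rose and 31.5% fell in DKO MEFs. Under library size alone Mcm5, Mcm6 and Pole2, with the letters, were also called higher in Null MEFs. Without the letters, the falls of Mcm2, Mcm10, Cdc45 and Pold2 then ended there, and Rfc1, Rfc4 and Chaf1a were called higher. In DKO MEFs the falls of Uhrf1, with the letters, and of Tk1 and Orc2, without them, then ended, and Orc2 was called higher (0.12). Mcm6 and Rfc3, with the letters, and Mcm2, Pold2, Rpa1 and Chaf1a, without them, were then also called higher in DKO MEFs. Capitals mark the E2F letters on either strand. The 250 bases are at chr8:75109259-75109508 (plus strand) for Mcm5, chr1:128359706-128359955 (minus) for Mcm6, chrX:93632156-93632405 (minus) for Pola1 and chr17:56304063-56304312 (plus) for Uhrf1. The first 3 lie outside any annotated gene, and the last lies in an intron of Uhrf1.
Mcm5: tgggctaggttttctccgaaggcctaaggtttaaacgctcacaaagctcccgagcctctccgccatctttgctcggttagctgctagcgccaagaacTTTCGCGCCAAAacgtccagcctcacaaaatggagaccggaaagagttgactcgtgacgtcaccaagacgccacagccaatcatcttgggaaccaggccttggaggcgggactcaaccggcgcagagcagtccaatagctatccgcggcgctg
Mcm6: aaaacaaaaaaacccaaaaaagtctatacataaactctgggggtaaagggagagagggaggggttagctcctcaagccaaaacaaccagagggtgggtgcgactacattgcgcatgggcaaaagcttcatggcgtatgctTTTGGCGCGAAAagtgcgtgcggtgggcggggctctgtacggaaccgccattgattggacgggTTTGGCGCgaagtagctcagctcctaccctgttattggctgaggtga
Pola1: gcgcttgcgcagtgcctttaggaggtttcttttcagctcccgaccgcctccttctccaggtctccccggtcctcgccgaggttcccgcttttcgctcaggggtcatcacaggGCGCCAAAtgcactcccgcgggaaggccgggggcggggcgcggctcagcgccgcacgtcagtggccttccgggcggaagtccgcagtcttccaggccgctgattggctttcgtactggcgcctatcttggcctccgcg
Uhrf1: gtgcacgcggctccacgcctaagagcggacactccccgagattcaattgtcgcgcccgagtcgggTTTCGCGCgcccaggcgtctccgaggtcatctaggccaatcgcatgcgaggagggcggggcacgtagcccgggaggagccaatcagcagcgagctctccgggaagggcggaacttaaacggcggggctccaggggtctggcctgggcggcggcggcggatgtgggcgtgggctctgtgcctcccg
The Mcm5 window holds 2 matches that overlap on opposite strands, 153 and 149 bases before the start, and the Mcm6 window holds such a pair 110 and 106 bases before it and a further match at 47 bases.

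The E-box CACGTG, which reads the same on both strands, is shown because the element recognized by TFEB and TFE3 contains it. By the same rule 3 of 6 windows are printed, at chr19:5964207-5964456 (minus strand) for Pola2, chr5:30073626-30073875 (minus) for Tyms and chr17:56040166-56040415 (plus) for Chaf1a, none inside an annotated gene, with the E-box in capitals.
Pola2: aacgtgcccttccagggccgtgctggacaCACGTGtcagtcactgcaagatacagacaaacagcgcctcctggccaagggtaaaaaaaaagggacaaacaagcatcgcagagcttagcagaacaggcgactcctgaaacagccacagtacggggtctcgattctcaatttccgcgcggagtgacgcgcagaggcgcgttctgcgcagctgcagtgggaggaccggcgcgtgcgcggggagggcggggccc
Tyms: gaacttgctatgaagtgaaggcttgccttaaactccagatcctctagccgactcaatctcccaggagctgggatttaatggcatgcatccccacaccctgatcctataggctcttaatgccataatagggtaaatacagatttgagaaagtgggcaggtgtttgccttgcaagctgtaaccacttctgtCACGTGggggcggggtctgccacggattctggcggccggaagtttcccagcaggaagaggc
Chaf1a: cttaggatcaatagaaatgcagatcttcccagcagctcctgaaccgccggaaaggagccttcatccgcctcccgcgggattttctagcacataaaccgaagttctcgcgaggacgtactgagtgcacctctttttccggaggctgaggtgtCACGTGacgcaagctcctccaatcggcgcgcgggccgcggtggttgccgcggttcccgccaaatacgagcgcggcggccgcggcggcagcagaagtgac
Against untreated Null MEFs, untreated DKO MEFs had lower Pola2 (log2 fold change −0.34 ± 0.04, SE) and Chaf1a (−0.19 ± 0.03) and higher Tyms (0.14 ± 0.04), all past the edgeR threshold. The call of Tyms was lost under library size alone (0.016, edgeR adjusted p = 0.743). Of the 6 genes with the E-box, 2 were higher and 3 lower in untreated DKO MEFs, beside 10 higher and 12 lower of the 32 with a window and no E-box. Of all genes 33.3% were higher and 33.4% lower. Under library size alone Rfc1, also with the E-box, lost its call (0.054, edgeR adjusted p = 0.2), and Rpa1, also with it, was called lower (−0.19, 8.94e-05). Between treated lines 2 of the 6 were higher and 4 lower in DKO MEFs, beside 18 higher and 10 lower of the 32, and 37.5 and 36.6% of all genes. The difference was not tested.

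Among the 12 licensing genes, 7 rose and 2 fell with etoposide in Null MEFs (median 0.13), and 9 rose and 1 fell in DKO MEFs (median 0.38). The background for these counts by role, here and below, was 42.3% of all genes higher and 37.2% lower in Null MEFs. In DKO MEFs it was 43.7% higher and 31.5% lower. Orc1, the subunit of the origin recognition complex whose level follows the cell cycle, was at 24.0, 24.6 and 23.1 CPM in untreated Null libraries and at 43.4, 45.9 and 42.1 CPM after etoposide. In DKO libraries it was at 16.5, 17.4 and 17.8 CPM before and 24.5, 25.4 and 25.2 CPM after treatment. All treated libraries lay above the untreated ones of their line, and the treated DKO libraries overlapped the untreated Null libraries. The log2 fold change was 0.87 ± 0.05 in Null (edgeR adjusted p = 1.39e-11) and 0.54 ± 0.05 in DKO MEFs (3.83e-08). Orc1 was lower in DKO than in Null MEFs in both conditions (−0.47 ± 0.05 untreated, −0.81 ± 0.05 treated), with an interaction of −0.33 ± 0.07 (edgeR adjusted p = 0.000614).

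Orc2 and Orc6, other subunits of the complex, went in opposite directions. Orc6 rose from 142 to 149 CPM to 196 to 213 CPM in Null MEFs and from 142 to 144 CPM to 189.8 to 204 CPM in DKO MEFs. Orc2 fell from 103 to 108 CPM to 78.6 to 80.9 CPM in Null MEFs, and was at 123 to 130.3 CPM before and 109 to 118 CPM after treatment in DKO MEFs, where library size alone turned its direction.

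Cdc6, which helps load the helicase, responded alike in both lines. It was at 91.3, 90.3 and 86.9 CPM in untreated and 147, 147 and 141 CPM in treated Null libraries, and at 82.7, 83.8 and 81.9 CPM and 133, 132 and 138 CPM in DKO libraries. Each treated library was above each untreated one, and the lines did not overlap in either condition. The log2 fold change was 0.70 ± 0.03 in each line, and the interaction of 0.01 ± 0.05 was not past the threshold (edgeR adjusted p = 0.952).

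Cdt1, the loading partner of Cdc6, was at 213, 199.98 and 213 CPM in untreated and 246, 241 and 258 CPM in treated Null libraries. The DKO libraries had 163, 164 and 154 CPM before and 229, 222 and 219 CPM after etoposide, so that the rise was larger from a lower start. Log2 fold changes were 0.25 ± 0.04 and 0.48 ± 0.04, with an interaction of 0.23 ± 0.05 (edgeR adjusted p = 0.00155). Gmnn, which encodes the Cdt1 inhibitor geminin, was at 43.5, 39.0 and 39.4 CPM in untreated and 43.5, 45.3 and 42.1 CPM in treated Null libraries, which overlapped. In DKO libraries Gmnn was at 31.9, 31.3 and 33.0 CPM before and 42.2, 42.2 and 43.5 CPM after etoposide, with no overlap. Its log2 fold change was 0.10 ± 0.05 in Null (edgeR adjusted p = 0.0556) and 0.42 ± 0.05 in DKO MEFs (5.66e-07), and the interaction was 0.31 ± 0.07 (0.00079). The Null value passed the threshold without untreated Null replicate 1 (edgeR adjusted p = 0.01) or treated Null replicate 3 (0.0455). It also passed with DESeq2's size factors (0.15, edgeR adjusted p = 0.00758), the stricter filter (0.19, 0.00155) and library size alone (0.27, 6.67e-05).

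The balance of Gmnn to Cdt1 within a library does not depend on scaling. The log2 ratio of their CPM was −2.36 ± 0.07 in untreated and −2.51 ± 0.10 in treated Null libraries, and −2.32 ± 0.09 and −2.39 ± 0.05 in DKO libraries (SD, n = 3). All 4 groups overlapped their partners in the comparisons made, and no exact permutation p was under 0.2. The smallest that 3 against 3 allows is 0.1, so this test could not pass a threshold of 0.05 and does not show that the balance was unchanged.

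The 6 subunits of the Mcm2 to Mcm7 ring are needed in equal number, yet their RNAs did not move together. Mcm7 rose in both lines, from 335, 334 and 336 CPM to 454, 457 and 461 CPM in Null libraries and from 345, 338 and 347 CPM to 418, 434 and 458 CPM in DKO libraries. Mcm3 was at 307, 292 and 301 CPM in untreated and 331, 330.3 and 329 CPM in treated Null libraries, and at 295, 297 and 292 CPM and 389, 383 and 401 CPM in DKO libraries. For both genes treated libraries exceeded all untreated libraries of the same line. Mcm7 had log2 fold changes of 0.45 ± 0.03 and 0.35 ± 0.03 and Mcm3 of 0.14 ± 0.03 and 0.41 ± 0.03 in Null and DKO MEFs. The interaction was past the threshold for Mcm3 (0.27 ± 0.04, edgeR adjusted p = 3.64e-05) and not for Mcm7 (−0.10 ± 0.05, 0.0784). Mcm7 passed it without untreated DKO replicate 2 (−0.13, edgeR adjusted p = 0.0353) or treated DKO replicate 3 (−0.15, 0.00696). Without the latter the treated lines also differed in Mcm7 (−0.12, edgeR adjusted p = 0.0032), where all libraries gave −0.07 (0.0806). With DESeq2's size factors both calls of Mcm7 were made, at −0.16 for the interaction (edgeR adjusted p = 0.00556) and −0.13 between treated lines (0.00193), and so with the stricter filter (−0.15 and −0.13). The call between treated lines was also made with no filter (−0.085, edgeR adjusted p = 0.0268) and under library size alone (−0.081, 0.0282).

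Mcm6 differed between the lines under every alternative. It was at 412, 409.8 and 403 CPM in untreated and 413, 419.7 and 427 CPM in treated Null libraries. In DKO libraries it was at 595, 585 and 590.1 CPM before and 578, 587 and 611 CPM after etoposide. Every DKO library was above every Null library, by a log2 fold change of 0.53 ± 0.03 without and 0.50 ± 0.03 after etoposide (edgeR adjusted p = 4.54e-11 and 8.99e-11). Responses to etoposide were 0.04 ± 0.03 in Null and 0.00 ± 0.03 in DKO MEFs and were not past the threshold, which depended on the processing. In Null MEFs Mcm6 was called higher with DESeq2's size factors (0.086, edgeR adjusted p = 0.0132), the stricter filter (0.13, 0.000696) and library size alone (0.21, 4.56e-06), and in DKO MEFs under library size alone (0.28, 1.26e-07).

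Mcm2, Mcm4 and Mcm5 moved little. Mcm2 was at 459.7, 445 and 435 CPM in untreated and 412, 412 and 423 CPM in treated Null libraries, and at 479, 468 and 472 CPM and 491, 486 and 497 CPM in DKO libraries. Mcm4 was at 322, 317 and 308 CPM and 349, 353 and 328 CPM in Null and at 339, 339 and 342 CPM and 384, 374 and 384 CPM in DKO libraries. Mcm5 was at 482, 473 and 473 CPM and 472, 471 and 493 CPM in Null and at 489.8, 506 and 497 CPM and 519, 510.3 and 544 CPM in DKO libraries. Mcm2 was lower in treated Null libraries (log2 fold change −0.10 ± 0.03, edgeR adjusted p = 0.00474) and Mcm4 higher in treated libraries of both lines (0.12 ± 0.03 and 0.16 ± 0.03). Mcm2 was higher in untreated DKO than in untreated Null MEFs by 0.08 (edgeR adjusted p = 0.0221), a call lost without untreated DKO replicate 1 or untreated Null replicate 2 or 3, at 0.06 to 0.08 (0.0562 to 0.105), and turned to −0.04 under library size alone. The fall of Mcm2 in Null MEFs lost its call with DESeq2's size factors (−0.057, edgeR adjusted p = 0.0847) and the stricter filter (−0.017, 0.583) and was 0.065 under library size alone, and its interaction of 0.16 lost its call with DESeq2's size factors (0.096, 0.0649). Mcm5 was called higher in DKO MEFs with etoposide (0.08 ± 0.03, edgeR adjusted p = 0.041). That call was lost without any 1 of untreated DKO replicates 1, 2 and 3 or treated DKO replicates 1 and 3, at log2 fold changes of 0.04 to 0.07 and edgeR adjusted p of 0.0967 to 0.372. It was also lost with DESeq2's size factors (0.059, edgeR adjusted p = 0.101), with no filter (0.037, 0.319) and with only the 6 libraries compared (0.047, 0.194), while in Null MEFs Mcm5 was called higher with the stricter filter (0.094, 0.01) and library size alone (0.18, 6.78e-05).

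Per kb of exon the ring subunits lay within a 1.86-fold range in untreated Null and untreated DKO MEFs, and within 2.01-fold and 1.86-fold after etoposide. Mcm2 had the lowest level in all 4 groups, at 59.8 to 70.7 CPM per kb on average. This rank depended on its exon length, 6.956 kb and the longest of the ring genes, and in CPM Mcm2 was not the lowest in any group. The highest was Mcm5 at 119.2 ± 1.39, 119.9 ± 3.09 and 131 ± 4.33 CPM per kb in untreated Null, treated Null and treated DKO MEFs (SD, n = 3), and in untreated DKO MEFs Mcm6 (126 ± 1.08) and Mcm5 (125 ± 1.97) were within their spread of each other. After etoposide Mcm6 in DKO MEFs, at 127 ± 3.72 CPM per kb, was within the spread of Mcm5.

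Of the 6 genes of helicase activation, 3 rose and 3 fell in Null MEFs (median 0.06), while 5 rose and none fell past the threshold in DKO MEFs (median 0.42). Their interaction was above 0 for 4 and below 0 for 1 (median 0.21), and that of the 8 primase and polymerase genes above 0 for 6 (median 0.21). Among the 4, Gins4 lost its call with DESeq2's size factors (0.11, edgeR adjusted p = 0.132) and the stricter filter (0.12, 0.0734). It was also lost without replicate 1 of untreated or treated Null or replicate 3 of untreated or treated DKO MEFs (0.12 to 0.15, edgeR adjusted p of 0.0516 to 0.0733). Of all genes 29.6% had an interaction above and 24.4% below 0. Mcm10, which joins the helicase at firing, was at 116, 109 and 108 CPM in untreated and 106, 104 and 104 CPM in treated Null libraries. In DKO libraries it was at 77.6, 76.9 and 81.0 CPM before and 108, 114 and 111 CPM after etoposide. The untreated DKO libraries were the lowest of all 12, and after treatment the DKO libraries exceeded the Null ones.

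For Mcm10 the log2 fold change with etoposide was −0.09 ± 0.04 in Null (edgeR adjusted p = 0.0387) and 0.50 ± 0.04 in DKO MEFs (1.27e-09), and the interaction of 0.59 ± 0.05 was the largest above 0 among the 47 genes (3.74e-08). The genotypes differed by −0.50 ± 0.04 without and 0.09 ± 0.04 after etoposide. The small fall in Null MEFs did not pass the threshold without untreated Null replicate 1 (edgeR adjusted p = 0.163) or treated Null replicate 2 (0.0723) or 3 (0.051), and under library size alone it was 0.08. With DESeq2's size factors it was −0.041 (edgeR adjusted p = 0.307), with the stricter filter −0.00022 (0.996) and with only the 6 libraries compared −0.080 (0.0657). The small difference after etoposide was lost with any of its 6 libraries left out, at 0.05 to 0.09 and edgeR adjusted p of 0.0677 to 0.278, and with DESeq2's size factors (0.026, 0.522), the stricter filter (0.022, 0.57), no filter (0.067, 0.169) and library size alone (0.071, 0.0919). The replicate block ended both calls, at −0.09 (edgeR adjusted p = 0.0529) and 0.09 (0.0559). The log2 ratio of Mcm10 to the mean of Mcm2 to Mcm7 was −1.71, −1.77 and −1.78 in untreated and −1.93, −1.96 and −1.96 in treated Null libraries, and −2.40, −2.41 and −2.34 and −2.084, −2.0007 and −2.096 in DKO libraries. Groups did not overlap in any of the 4 comparisons, each at an exact permutation p of 0.1, the smallest that 3 against 3 allows (0.145 after adjustment over 16 ratio tests).

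Cdc45 was at 73.5, 70.5 and 73.4 CPM in untreated and 69.3, 66.6 and 67.7 CPM in treated Null libraries. Its DKO levels were higher, at 81.4, 80.2 and 81.7 CPM before and 89.1, 85.6 and 95.5 CPM after etoposide. Gins1 was at 26.8, 26.4 and 28.3 CPM in untreated and 25.3, 24.5 and 25.3 CPM in treated Null libraries, and at 30.3, 30.8 and 30.7 CPM and 36.3, 39.9 and 39.2 CPM in DKO libraries. For both genes every DKO library exceeded every Null library, and the treated DKO libraries were highest. Log2 fold changes with etoposide were −0.10 ± 0.04 and 0.15 ± 0.04 for Cdc45 and −0.12 ± 0.05 and 0.33 ± 0.05 for Gins1, in Null and DKO MEFs. Interactions were 0.25 ± 0.06 (edgeR adjusted p = 0.00129) and 0.45 ± 0.07 (1.58e-05).

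The falls of Cdc45 and Gins1 in Null MEFs rested on small margins. Cdc45 lost its call without untreated Null replicate 1 or 3 or treated Null replicate 2 or 3, at −0.10 to −0.09 and edgeR adjusted p of 0.0501 to 0.0932. Gins1 lost its call without untreated Null replicate 3 or treated Null replicate 2, at −0.11 to −0.10 and edgeR adjusted p of 0.0793 to 0.0867. Library size alone gave 0.07 for Cdc45 and 0.05 for Gins1, with no call. DESeq2's size factors gave −0.05 for Cdc45 (edgeR adjusted p = 0.259) and −0.072 for Gins1 (0.168), and the stricter filter −0.0096 (0.827) and −0.031 (0.541). With only the 6 libraries compared Gins1 was at −0.11 (edgeR adjusted p = 0.0573). Between untreated lines the higher levels in DKO MEFs, 0.16 for Cdc45 and 0.17 for Gins1, lost their calls under library size alone, at 0.041 (edgeR adjusted p = 0.391) and 0.051 (0.341).

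The other GINS subunits differed from Gins1. Gins3 was at 31.4, 30.4 and 30.3 CPM in untreated and 53.7, 56.3 and 55.3 CPM in treated Null libraries, and at 25.7, 24.8 and 29.0 CPM and 46.7, 46.3 and 52.9 CPM in DKO libraries. It rose by log2 0.84 ± 0.06 and 0.88 ± 0.06, among the 3 largest rises in both lines. Gins4 also rose in both, from 61.1 to 63.2 CPM to 85.0 to 87.7 CPM in Null and from 51.8 to 56.6 CPM to 83.5 to 90.1 CPM in DKO libraries. Gins2 rose in Null MEFs, from 81.5 to 84.1 CPM to 91.9 to 97.9 CPM, and was at 82.6 to 86.6 CPM and 79.1 to 84.1 CPM in DKO libraries, which overlapped. In DKO MEFs Gins2 was called lower with no filter (−0.096, edgeR adjusted p = 0.0478), with only the 6 libraries compared (−0.086, 0.0462) and without treated DKO replicate 2 (−0.093, 0.047), and higher under library size alone (0.22, 3.02e-05). Exons of Gins2 overlap those of Gse1 on the opposite strand over 67.3% of their length. The strand setting of the counting is not stated, so reads there may be counted for the wrong gene or left out as ambiguous.

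**Figure D3:**
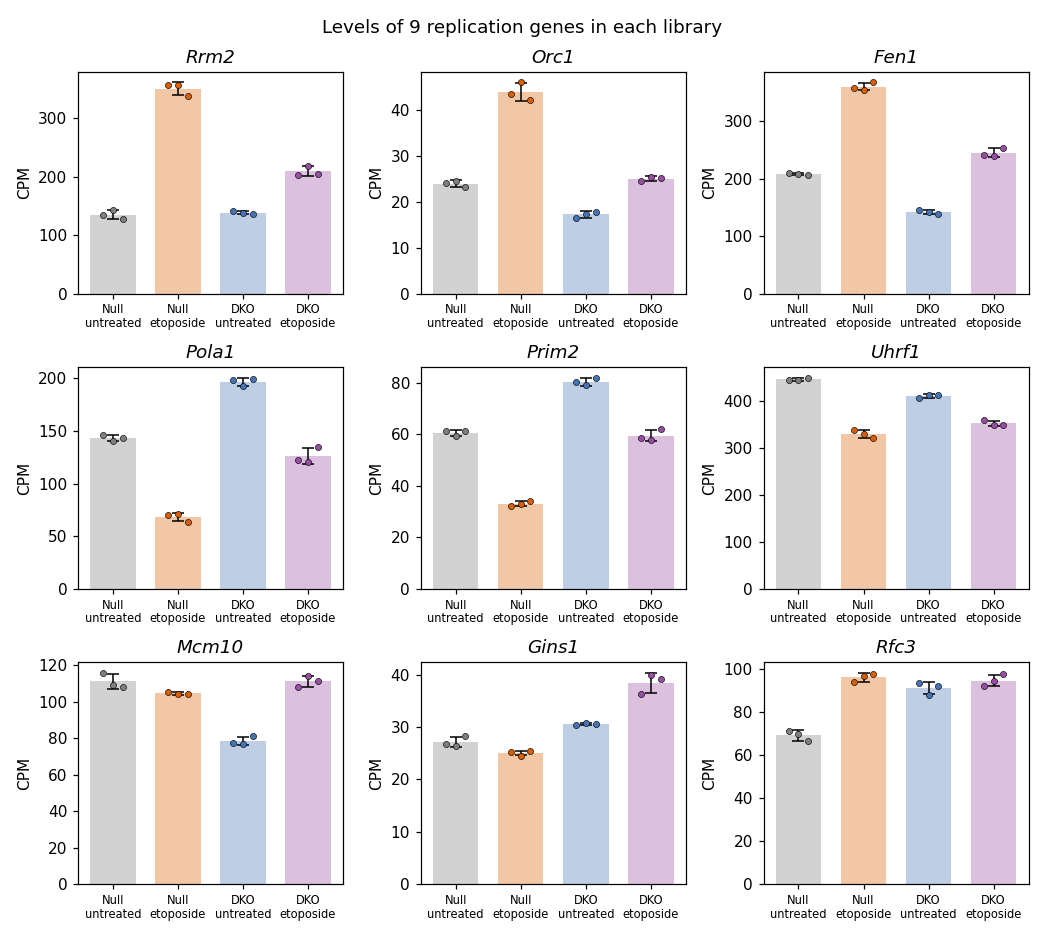
CPM of 9 genes in the 4 groups, with a point for each library, bars for the group mean from 0 and error bars for the SD (n = 3). Rrm2, Orc1 and Fen1 are highest in treated Null MEFs, Pola1 and Prim2 lowest there, and Mcm10 is lowest in untreated DKO MEFs.

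PCNA, the sliding clamp, and its loader subunits Rfc1 to Rfc5 gave 4 rises and no fall past the threshold in Null MEFs (median 0.43) and 5 rises and no fall in DKO MEFs (median 0.30). Pcna was at 517, 499.7 and 511 CPM in untreated and 746, 689 and 740.3 CPM in treated Null libraries. In DKO libraries it was at 586, 556 and 585 CPM before and 878, 872 and 926 CPM after etoposide. The 4 groups did not overlap, and treated DKO MEFs were highest. Log2 fold changes were 0.51 ± 0.04 (edgeR adjusted p = 9.13e-10) and 0.63 ± 0.04 (6.86e-11). The interaction of 0.12 ± 0.05 was not past the threshold (edgeR adjusted p = 0.0598), and passed it at 0.14 without untreated Null replicate 2 (0.0478) or treated Null replicate 1 (0.0384) or 3 (0.0397). The replicate block also brought it past the threshold, at 0.12 (edgeR adjusted p = 0.0311). So did limma-trend in place of edgeR (0.12, adjusted p = 0.0382) and library size alone (0.23, edgeR adjusted p = 0.00136), and the latter ended the higher level of Pcna in untreated DKO MEFs (0.18 to 0.055, 0.209). The genome holds 2 named pseudogenes of Pcna and 1 of Tyms, with which reads of these genes could be shared.

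Rfc3 was the loader subunit with the largest difference in response. It was at 71.3, 69.8 and 66.3 CPM in untreated and 93.8, 96.9 and 97.7 CPM in treated Null libraries, while DKO libraries had 93.5, 87.9 and 91.9 CPM before and 92.1, 94.1 and 97.5 CPM after etoposide. Untreated Null libraries were the low group, and the other 9 libraries spanned 87.9 to 97.7 CPM. The log2 fold change was 0.48 ± 0.04 in Null (edgeR adjusted p = 3.76e-09) and 0.06 ± 0.04 in DKO MEFs (0.197), with an interaction of −0.42 ± 0.05 (4.39e-06). In DKO MEFs Rfc3 was called higher with the stricter filter (0.091, edgeR adjusted p = 0.0315) and under library size alone (0.33, 4.82e-07). Rfc5 rose in both lines, from 73.3 to 80.5 CPM to 108 to 113 CPM in Null and from 75.2 to 79.1 CPM to 128 to 135 CPM in DKO libraries. Rfc2 rose in both as well, by 0.38 ± 0.05 and 0.30 ± 0.05, and Rfc1 and Rfc4 rose in DKO MEFs by 0.14 ± 0.04 and 0.30 ± 0.05. In Null MEFs Rfc1 was called lower without untreated Null replicate 3 (−0.11, edgeR adjusted p = 0.0101) and with no filter (−0.088, 0.043), and under library size alone both were called higher (0.11 and 0.19).

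Polymerase alpha and primase subunits showed the largest falls of the 47 genes. Pola1, the catalytic subunit of polymerase alpha, was at 147, 140.4 and 143 CPM in untreated and 70.1, 71.4 and 63.7 CPM in treated Null libraries. Levels in DKO libraries were 198, 193 and 199.9 CPM before and 122, 121 and 135 CPM after etoposide. Untreated DKO libraries were highest and treated Null libraries lowest, with no overlap between any groups. The log2 fold change was −1.07 ± 0.05 in Null (edgeR adjusted p = 5.85e-13) and −0.64 ± 0.05 in DKO MEFs (8.4e-10), with an interaction of 0.42 ± 0.07 (2.72e-05). DKO MEFs had more Pola1 than Null MEFs without etoposide (0.46 ± 0.05) and after it (0.88 ± 0.05), the largest excess of the 47 genes after treatment.

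Prim2, the large primase subunit, behaved like Pola1. It was at 61.2, 59.2 and 61.1 CPM in untreated and 32.1, 33.1 and 34.0 CPM in treated Null libraries, and at 80.3, 79.0 and 82.0 CPM and 58.4, 58.0 and 61.9 CPM in DKO libraries. Treated DKO libraries thus fell to the range of untreated Null libraries. Log2 fold changes were −0.87 ± 0.04 (edgeR adjusted p = 9.95e-13) and −0.43 ± 0.04 (1.55e-08), and the interaction was 0.44 ± 0.06 (2.88e-06).

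Their partners went the other way. Prim1, the catalytic primase subunit, was at 121, 118 and 113 CPM in untreated and 178, 186 and 187 CPM in treated Null libraries, and at 95.3, 90.6 and 92.8 CPM and 146, 143 and 158 CPM in DKO libraries. Every treated library exceeded every untreated library of either line. Pola2, the regulatory subunit of polymerase alpha, was at 87.5 to 90.5 CPM and 94.6 to 97.3 CPM in Null and at 67.0 to 72.4 CPM and 87.4 to 88.1 CPM in DKO libraries, a rise of 0.11 ± 0.04 and 0.32 ± 0.04. The former lost its call with no filter (0.086, edgeR adjusted p = 0.0614) and without untreated Null replicate 2 (0.092, 0.0522). Per kb of exon, the highest of the 4 subunits, Prim1, stood 2.98-fold above the lowest, Prim2, in untreated Null MEFs and 8.52-fold above it after etoposide. In DKO MEFs the range was 2.83-fold before, with Pola2 lowest, and 3.85-fold after, with Prim2 lowest. These orders depended on the exon length used, and in CPM Pola1 was above Prim1 in untreated MEFs of both lines.

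Polymerase epsilon genes differed by line. Pole was at 138, 131 and 130.5 CPM in untreated and 141, 139 and 134 CPM in treated Null libraries, which overlapped, and at 133, 139.5 and 142 CPM and 168, 162 and 171 CPM in DKO libraries, which did not. The log2 fold change was 0.05 ± 0.04 in Null (edgeR adjusted p = 0.189) and 0.27 ± 0.04 in DKO MEFs (3.52e-06), with an interaction of 0.22 ± 0.05 (0.00171). In Null MEFs Pole was called higher with DESeq2's size factors (0.099, edgeR adjusted p = 0.0193), the stricter filter (0.14, 0.00223) and library size alone (0.22, 4.16e-05). Its partner Pole2 gave 0.00 ± 0.05 and 0.32 ± 0.05, with an interaction of 0.31 ± 0.07, and was called higher in Null MEFs under library size alone (0.17). Of the polymerase delta genes, Pold1 rose by 0.13 ± 0.04 and 0.12 ± 0.04, the latter not past the threshold with no filter (0.084, edgeR adjusted p = 0.067). Pold2 was lower in treated Null MEFs (−0.19 ± 0.04) and not past the threshold in DKO MEFs (0.02 ± 0.04), and library size alone ended the former call (−0.018, edgeR adjusted p = 0.705).

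**Figure D4:**
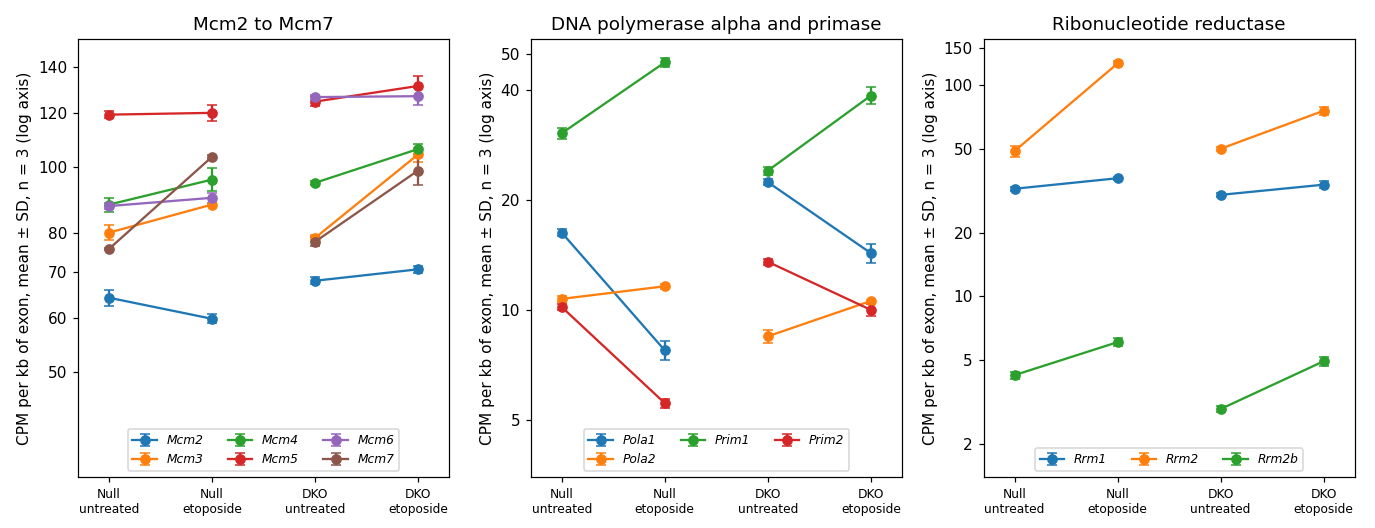
Mean CPM per kb of exon (log axis, error bars SD, n = 3) of the Mcm2 to Mcm7 ring, of polymerase alpha with primase, and of ribonucleotide reductase in the 4 groups, with a line from untreated to treated MEFs of the same line. The distance from Prim1 to Prim2 widens from 2.98-fold to 8.52-fold in Null MEFs, and Rrm2 reaches 126 CPM per kb there.

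Pola1 and Prim2 share a feature that the choice of genes did not use. They span 327.4 kb (chrX:93304767-93632155, minus strand) and 216 kb (chr1:33453810-33669795, minus strand) on GRCm38, and are the only members of the 47 over 100 kb. Across the 47 genes Spearman's rho of the log2 fold change with gene span was −0.41 in Null and −0.31 in DKO MEFs, against −0.17 and −0.14 across 15062 genes with a known span. Without Pola1 and Prim2 it was −0.33 and −0.21 across 45 genes. Between genotypes it was 0.28 without and 0.39 after etoposide, and 0.32 for the interaction, where all genes gave 0.03, 0.07 and 0.07. Without Pola1 and Prim2 these values were 0.18, 0.30 and 0.23. These are descriptions across genes, which are not independent replicates, and summed exon length gave weaker relations within the 47 genes (−0.16 in Null and −0.20 in DKO MEFs).

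Among all genes, the median log2 fold change with etoposide in Null MEFs was 0.20 for 3981 genes under 10 kb, 0.15 for 4805 of 10 to 30 kb, −0.09 for 4258 of 30 to 100 kb and −0.38 for 2018 over 100 kb. In DKO MEFs these medians were 0.23, 0.20, 0.01 and −0.26. The 9 genes of the group under 10 kb had medians of 0.48 in Null and 0.44 in DKO MEFs, the 26 of 10 to 30 kb 0.13 and 0.32, and the 10 of 30 to 100 kb 0.10 and 0.21. Clspn and Orc1, at 36.97 and 35.41 kb, were among the genes that rose in both lines. Why responses differed by span was not tested.

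**Figure D5:**
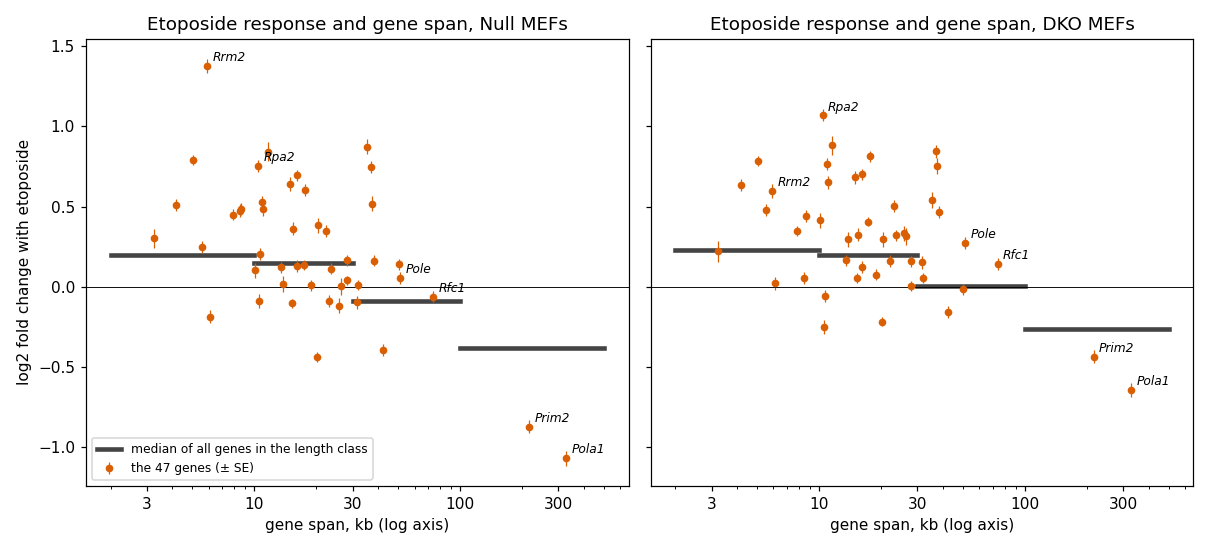
Log2 fold change with etoposide against gene span (kb, log axis) for the 47 genes in Null (left) and DKO MEFs (right), with standard errors as bars and horizontal lines at the median of all genes in each length class. Pola1 and Prim2, the longest genes, have the lowest values in both panels, and all-gene medians fall from 0.20 to −0.38 in Null MEFs.

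Single-strand binding protein genes Rpa1 to Rpa3 and the flap nuclease gene Fen1 all rose in Null MEFs (median 0.53), and 3 of these 4 rose in DKO MEFs (median 0.50). Rpa2 was at 74.5, 69.6 and 75.7 CPM in untreated and 122, 123 and 126 CPM in treated Null libraries. DKO MEFs had 56.3, 56.2 and 57.2 CPM before and 116, 118 and 122 CPM after etoposide, so that the lines were apart before treatment and close after it. Log2 fold changes were 0.75 ± 0.04 (edgeR adjusted p = 2.48e-12) and 1.07 ± 0.04 (3.91e-14), the largest rise of the 47 genes in DKO MEFs, and the interaction was 0.31 ± 0.05 (6.07e-05). The genotypes after etoposide differed by −0.06 ± 0.04 (edgeR adjusted p = 0.147), which passed the threshold without treated DKO replicate 3 (−0.09, 0.0453), with DESeq2's size factors (−0.12, 0.00616) and with the stricter filter (−0.12, 0.00367).

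Fen1 was at 211, 208 and 206 CPM in untreated and 358, 355 and 368 CPM in treated Null libraries, and at 146, 142 and 139 CPM and 242, 240.4 and 254 CPM in DKO libraries. The groups did not overlap. The rise was 0.79 ± 0.03 in each line, and the DKO line was lower by 0.55 on the log2 scale in each condition. Exons of Fen1 overlap the antisense gene Gm10143 over 78.8% of their length, so reads there may be counted for the wrong gene or left out as ambiguous. Rpa1 and Rpa3, the largest and smallest of the 3 RPA subunits, rose by 0.14 ± 0.04 and 0.30 ± 0.06 in Null MEFs. In DKO MEFs Rpa3 rose by 0.22 ± 0.06, a call lost without untreated DKO replicate 1 (0.13, edgeR adjusted p = 0.0793), and Rpa1 was not past the threshold (−0.02 ± 0.04), except under library size alone (0.26, 2.38e-06).

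Of the 5 nucleotide supply genes, 4 rose in each line and Tk1 was lower in DKO MEFs (medians 0.36 and 0.33). Rrm2, the small subunit of ribonucleotide reductase that is made in S phase, was at 134, 143 and 127 CPM in untreated and 357, 356 and 338 CPM in treated Null libraries. DKO libraries had 141, 138 and 135 CPM before and 203, 219 and 205 CPM after etoposide. Untreated libraries of the lines overlapped, while treated Null libraries stood above all others. This was the largest rise of the 47 genes in Null MEFs, 1.38 ± 0.04 (2.60-fold, edgeR adjusted p = 5.31e-15), against 0.60 ± 0.04 in DKO MEFs (1.51-fold, 8.58e-10). The interaction was −0.78 ± 0.06 (edgeR adjusted p = 6.71e-09), the largest below 0 in the group.

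Rrm2b, the p53-induced alternative small subunit, rose in both lines from lower levels. It was at 37.5, 40.4 and 38.5 CPM in untreated and 57.3, 56.6 and 52.7 CPM in treated Null libraries, and at 27.6, 25.7 and 27.2 CPM and 44.7, 43.0 and 47.6 CPM in DKO libraries. DKO libraries were below Null libraries of the same treatment. The rise was 0.52 ± 0.05 in Null and 0.75 ± 0.05 in DKO MEFs, with an interaction of 0.23 ± 0.07 (edgeR adjusted p = 0.00987) that was lost without untreated DKO replicate 2 (0.18, 0.0535) and with DESeq2's size factors (0.17, 0.0523). Rrm1, the large subunit, was at 361, 359 and 346 CPM and 390.5, 403 and 402 CPM in Null and at 339.7, 327 and 331 CPM and 357, 372 and 386 CPM in DKO libraries, a rise of 0.17 ± 0.03 and 0.16 ± 0.03. Its lower level in untreated DKO MEFs, −0.10 ± 0.03 (edgeR adjusted p = 0.019), was lost without untreated Null replicate 1 or 2 or untreated DKO replicate 2 or 3, at −0.09 and edgeR adjusted p of 0.0502 to 0.0648.

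Within a library, the log2 ratio of Rrm2b to Rrm2 was −1.84, −1.82 and −1.73 in untreated and −2.64, −2.65 and −2.68 in treated Null libraries. In DKO libraries it was −2.35, −2.43 and −2.32 before and −2.18, −2.35 and −2.11 after etoposide, which overlapped. The shift was −0.86 in Null MEFs with no overlap and 0.15 in DKO MEFs, at exact permutation p of 0.1 and 0.2. The ratio of Rrm2b to Rrm1 rose in both lines, from −3.20 ± 0.06 to −2.84 ± 0.08 in Null and from −3.63 ± 0.03 to −3.04 ± 0.06 in DKO libraries (SD, n = 3), with no overlap in either. Per kb of exon, Rrm2 was the highest and Rrm2b the lowest of the 3 genes in all 4 groups, from 11.5-fold apart in untreated to 20.8-fold in treated Null MEFs, and 16.99-fold and 15.3-fold apart in DKO MEFs. The place of Rrm2 depended on the exon length used, 2.771 kb against 11.01 kb for Rrm1, and in CPM Rrm1 was above Rrm2 in each group.

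Tyms, which encodes thymidylate synthase, was at 132, 119.97 and 127 CPM in untreated and 159.7, 160.4 and 166 CPM in treated Null libraries, and at 142, 136 and 138 CPM and 166, 173 and 183 CPM in DKO libraries. It rose alike, by 0.36 ± 0.04 and 0.33 ± 0.04. Its higher level in treated DKO than in treated Null MEFs, 0.10 ± 0.04 (edgeR adjusted p = 0.032), came with overlapping replicates and was lost without treated Null replicate 1 or 2 or treated DKO replicate 2 or 3, at 0.05 to 0.09 (0.0865 to 0.282), and with DESeq2's size factors (0.042, 0.354), the stricter filter (0.037, 0.383), no filter (0.082, 0.0934) and library size alone (0.086, 0.0612). Tk1, the thymidine kinase of the salvage pathway, was at 145, 150.3 and 155 CPM and 137, 139 and 148 CPM in Null libraries, which overlapped. DKO libraries were lower throughout, at 116, 115 and 109 CPM before and 89.2, 97.3 and 97.8 CPM after etoposide.

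With etoposide Tk1 gave −0.09 ± 0.04 in Null (edgeR adjusted p = 0.0669) and −0.25 ± 0.04 in DKO MEFs (5.15e-05), which became 0.02 with no call under library size alone. The Null value passed the threshold without untreated Null replicate 1 (−0.12, edgeR adjusted p = 0.033) or treated Null replicate 3 (−0.13, 0.015), and with no filter (−0.12, 0.0215). The interaction of −0.16 ± 0.06 (edgeR adjusted p = 0.0298) was lost without untreated Null replicate 1 or 2, treated Null replicate 3 or treated DKO replicate 1, at −0.16 to −0.13 (0.054 to 0.0831), and under library size alone (−0.059, 0.402). Between the lines Tk1 was lower in DKO MEFs by −0.41 ± 0.04 without and −0.57 ± 0.04 after etoposide.

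The last 6 genes act at the fork checkpoint, in clamp-coupled degradation or on chromatin, and 4 rose and 1 fell in each line (medians 0.26 and 0.31). Clspn encodes claspin, which relays the checkpoint signal at stalled forks. It was at 79.9, 78.9 and 76.4 CPM in untreated and 136, 133 and 126 CPM in treated Null libraries, and at 60.9, 59.99 and 61.1 CPM and 106, 108 and 113 CPM in DKO libraries. No groups overlapped, the rises were 0.75 ± 0.04 and 0.84 ± 0.04, and the interaction of 0.10 ± 0.05 was not past the threshold (edgeR adjusted p = 0.14), except under library size alone (0.20, 0.00318).

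Dtl, the substrate receptor of the ligase that destroys Cdt1 on the clamp, was at 100.5, 97.7 and 93.1 CPM in untreated and 112, 110.5 and 104 CPM in treated Null libraries. The DKO libraries were at 107, 109 and 110.2 CPM before and 149, 152 and 149 CPM after etoposide, the highest of all groups. The rise was 0.16 ± 0.04 and 0.47 ± 0.04, with an interaction of 0.30 ± 0.05 (edgeR adjusted p = 8.42e-05). Between untreated lines the higher Dtl in DKO MEFs, 0.16, lost its call under library size alone (0.043, edgeR adjusted p = 0.322). Slbp, which binds replication-dependent histone mRNA, rose from 149, 146 and 145 CPM to 221, 221 and 227 CPM in Null and from 156, 147 and 153 CPM to 259, 261 and 279.8 CPM in DKO libraries. Untreated lines overlapped and treated DKO libraries were above treated Null libraries, with an interaction of 0.21 ± 0.05 (edgeR adjusted p = 0.00181).

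Uhrf1, which guides maintenance of DNA methylation behind the fork, fell in both lines under TMM and, in DKO MEFs, not under library size alone. It was at 445, 444 and 449.6 CPM in untreated and 337, 329.7 and 321 CPM in treated Null libraries, and at 405, 412 and 412 CPM and 359, 349 and 349.7 CPM in DKO libraries. On the TMM scale DKO libraries were below Null libraries before and above them after treatment. Log2 fold changes were −0.44 ± 0.03 and −0.22 ± 0.03, with an interaction of 0.22 ± 0.04 (edgeR adjusted p = 0.000206). The higher level in treated DKO MEFs, 0.10 ± 0.03, lost its call without treated DKO replicate 1 (0.07, edgeR adjusted p = 0.0842), with DESeq2's size factors (0.039, 0.242) and with the stricter filter (0.034, 0.287), so that the order after treatment depended on the processing.

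Chromatin assembly factor subunits differed from each other. Chaf1b was at 87.0, 80.1 and 80.8 CPM in untreated and 100.5, 105 and 110.02 CPM in treated Null libraries, and at 130.4, 132 and 129 CPM and 146, 142 and 149 CPM in DKO libraries. Every DKO library exceeded every Null library, and the difference without etoposide, 0.66 ± 0.04 (edgeR adjusted p = 1.22e-10), was the largest excess of the 47 genes between untreated lines. Its rises were 0.35 ± 0.04 and 0.16 ± 0.04, with an interaction of −0.19 ± 0.06 (edgeR adjusted p = 0.00941) that lost its call under library size alone (−0.082, 0.237). Chaf1a was at 146 to 153 CPM and 148 to 155 CPM in Null and at 129 to 133 CPM and 135 to 138 CPM in DKO libraries, and was not past the threshold with etoposide in either line. It was called higher in both with the stricter filter (0.096 and 0.090) and under library size alone (0.18 and 0.33). Exons of Chaf1a overlap those of Ubxn6 on the opposite strand over 52.5% of their length.

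Other genes of the replication pathway, 46 in all and all tested, gave 23 rises and 14 falls with etoposide in Null MEFs (median 0.13) and 32 rises and 8 falls in DKO MEFs (median 0.27). Of these 46 genes 80.4% were past the threshold in Null and 87% in DKO MEFs, beside 79.4 and 75.1% of all genes. Under library size alone 32 rose and 7 fell in Null (median 0.30) and 40 rose and 3 fell in DKO MEFs (median 0.54), 11 were higher and 24 lower between untreated lines, and 28 interactions were above and 3 below 0. Falls of Topbp1 and Timeless under TMM turned with it, with Timeless called higher in Null (0.069) and Topbp1 in DKO MEFs (0.099). With TMM, DKO and Null MEFs differed for 20 higher and 23 lower without and 23 higher and 14 lower after etoposide, and 17 interactions were above and 6 below 0. In that order 66.7, 74 and 54% of all genes were called. Between lines 33.3% of all genes were higher and 33.4% lower without etoposide, and 37.5 and 36.6% after it. Interactions of all genes were above 0 for 29.6% and below 0 for 24.4%. Dna2, a nuclease and helicase of flap processing, rose most in both lines, from 22.4, 24.0 and 21.3 CPM to 70.8, 69.1 and 62.5 CPM in Null and from 16.8, 16.8 and 15.95 CPM to 52.1, 50.8 and 50.7 CPM in DKO libraries. Treated libraries stood far above untreated ones in both lines, with log2 fold changes of 1.58 and 1.63 (edgeR adjusted p = 1.59e-14 and 2.77e-14).

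Mtbp, a partner of the firing factor treslin, moved in opposite directions. It was at 136, 133 and 133 CPM in untreated and 76.1, 74.8 and 75.6 CPM in treated Null libraries, and at 80.7, 80.5 and 75.5 CPM and 89.9, 90.2 and 96.0 CPM in DKO libraries. Log2 fold changes were −0.83 and 0.22, with an interaction of 1.05 (edgeR adjusted p = 2.83e-11). Shmt1, a folate enzyme that feeds thymidylate synthesis, was at 109, 112 and 116 CPM and 93.2, 95.5 and 99.7 CPM in Null and at 52.3, 52.5 and 50.2 CPM and 105, 108 and 113 CPM in DKO libraries. Untreated DKO libraries were the low group, and the interaction was 1.30 (edgeR adjusted p = 4.34e-12).

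Further genes of this list named by size were Pold4, with rises of 1.43 and 0.53, Recql4, with 0.20 and 1.13, and Pole4, with 0.63 and 1.13. Among the falls, Samhd1, which destroys deoxynucleotides, gave −0.95 and −0.59, Dbf4, the activator of the Cdc7 kinase, −0.82 and −0.54, and Mcmbp −0.79 and −0.29. Between untreated lines Topbp1 and Ticrr, which act in origin firing, were higher in DKO MEFs by 0.47 and 0.38, while Shmt1 (−1.12) and Recql4 (−0.99) were lower. Between treated lines Mcmbp (0.85) and Pole4 (0.75) were higher in DKO MEFs and Pold4 (−1.41) lower. Rnaseh2c was lower in treated DKO MEFs (−0.68), with an interaction of −0.50. Each of these values passed the edgeR threshold, although the fall of Mcmbp in DKO MEFs lost its call under library size alone (−0.020, adjusted p = 0.577).

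The 17 regulators of these genes gave 12 rises and 2 falls in Null (median 0.46) and 11 rises and 1 fall in DKO MEFs (median 0.24). Of these genes 82.4% were past the threshold in Null and 70.6% in DKO MEFs, beside 79.4 and 75.1% of all genes. There were 6 higher and 6 lower between untreated and 7 and 9 between treated lines, and 4 interactions above and 8 below 0. In that order 70.6, 94.1 and 70.6% were called, beside 66.7, 74 and 54% of all genes. Library size alone gave 4 higher and 9 lower between untreated lines, and DESeq2's size factors 4 and 9 between treated lines. Under library size alone 14 rose and 2 fell in Null (median 0.63) and 16 rose and none fell past the threshold in DKO MEFs (median 0.52). Cdkn1a, which encodes the inhibitor p21, rose most, from 71.5, 65.6 and 60.1 CPM to 498, 511 and 510.0 CPM in Null and from 38.4, 39.8 and 40.7 CPM to 242, 254 and 227 CPM in DKO libraries. Treated libraries lay far above the untreated ones in both lines and were higher in Null than in DKO MEFs, with log2 fold changes of 2.94 and 2.60. Ccne2 and Ccne1, cyclins of the G1/S transition, rose by 1.79 and 1.46 in Null and 1.39 and 0.99 in DKO MEFs. E2f1 rose by 0.71 and 0.56 and was higher in DKO MEFs without (0.60) and after etoposide (0.45).

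E2f2 was at 11.9, 11.3 and 12.1 CPM in untreated and 14.9, 15.01 and 14.9 CPM in treated Null libraries, and at 4.83, 5.23 and 5.13 CPM and 10.5, 12.7 and 11.8 CPM in DKO libraries, with an interaction of 0.87 (edgeR adjusted p = 1.68e-06). Untreated DKO libraries were again the low group. Rb1 and Rbl2, pocket proteins that restrain E2F, rose by 1.1002 and 0.81 in Null and 0.29 and 0.10 in DKO MEFs, with interactions of −0.81 and −0.71. The small rise of Rbl2 in DKO MEFs lost its call with DESeq2's size factors (0.083, edgeR adjusted p = 0.0771) and with no filter (0.061, 0.269). E2f4 fell in Null MEFs (−0.45) and was not past the threshold in DKO MEFs (−0.00, edgeR adjusted p = 0.959), and E2f3 was lower in both (−0.52 and −0.26), although in DKO MEFs library size alone gave 0.02 with no call for E2f3 and a rise of 0.27 for E2f4.

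Of 20 G2 and mitosis genes 14 fell and 2 rose with etoposide in Null MEFs (median −0.55), and 17 fell and none rose past the threshold in DKO MEFs (median −0.74, edgeR). The share called was 80% in Null and 85% in DKO MEFs, beside 79.4 and 75.1% of all genes. Of all genes 37.2% fell and 42.3% rose in Null and 31.5% fell and 43.7% rose in DKO MEFs. Under library size alone 11 fell and 6 rose in Null (median −0.38) and 13 fell and 5 rose in DKO MEFs (median −0.46), so that falls outnumbered rises by less than under TMM. In DKO MEFs Aurkb and Mki67 then turned from a fall to a call above 0 (0.10 and 0.16), and Kif20a in DKO MEFs (0.063) and Ccna2 in Null MEFs (0.068) turned with no call. With TMM, between lines 5 were higher and 8 lower without and 8 higher and 11 lower after etoposide, and 5 interactions were above and 6 below 0. In that order 65, 95 and 55% were past the threshold, beside 66.7, 74 and 54% of all genes. Library size alone gave 3 higher and 12 lower between untreated lines, and 8 interactions above and 5 below 0 (median 0.11). DESeq2's size factors gave 2 interactions above and 9 below 0 (median −0.058), so that their balance depended on the scaling. Prc1, a spindle midzone protein gene, was at 241, 243 and 239 CPM in untreated and 92.9, 99.7 and 103 CPM in treated Null libraries, and at 309, 299.6 and 297 CPM and 128, 119 and 134 CPM in DKO libraries. Treated libraries were below all untreated ones in both lines, with log2 fold changes of −1.29 and −1.25. Ccnb1 gave −0.93 in each line, Plk1 −0.92 and −1.11, Ccnb2 −0.70 and −1.14 and Nusap1 −1.23 and −1.04. Mki67, the proliferation marker, gave −0.13 and −0.11, both lost with the stricter filter (−0.043 and −0.078) and turned under library size alone, to 0.039 with no call in Null and 0.16 in DKO MEFs (edgeR adjusted p = 0.000965).

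Under TMM, Cenpe and Cdc20 were the 2 rises of that list in Null MEFs, by 0.26 and 0.22, and both fell in DKO MEFs (−0.74 and −0.35). Library size alone added calls above 0 in Null MEFs for Bub1 (0.24), Ttk (0.20), Kif20a (0.16) and Aurkb (0.098) and ended the fall of Cdc20 in DKO MEFs (−0.077, edgeR adjusted p = 0.055). Bub1 was also called higher in Null MEFs with DESeq2's size factors (0.12) and the stricter filter (0.16), and Ttk with the latter (0.12). Cenpe was at 175, 179 and 164 CPM and 209, 215 and 195 CPM in Null and at 163, 158 and 159 CPM and 96.6, 93.5 and 97.1 CPM in DKO libraries. The treated DKO libraries were the low group, and the interaction was −1.0002 (edgeR adjusted p = 1.87e-10).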

How the data were processed

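The deposited values are raw counts per gene, which the authors made from stranded paired-end reads of total RNA after rRNA depletion. They trimmed adapters with Cutadapt where required and aligned with HISAT2, and counted unique pairs per gene with HTSeq by the paper's methods, while the submitters' processing notes name featureCounts and mm10. The strand setting was not stated. The share of pairs assigned to genes was 53.4 to 63.1%. Summary lines, which neither library sizes nor tests include, held 20.2 to 27.3% (no feature), 0.428 to 0.513% (ambiguous) and 15.9 to 20.5% (not uniquely aligned). The table has 12 columns, each a library analysed here.

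The members and lists were chosen with earlier results of these data known. Genes were filtered with filterByExpr by group, scaled by TMM (factors 0.884 to 1.09) and tested with edgeR 4.0.16 (quasi-likelihood F test, Benjamini-Hochberg over 15220 genes) in R 4.3.3, in 1 fit of 12 libraries without a block, for etoposide in each line, genotype in each condition and their interaction. The scripts were tested on simulated data in which 200 genes changed, in treated Null libraries only. That setting does not cover scaling where most genes change, as they did here. Errors of fold changes are standard errors of the fit. The fit without legacy dispersions was used throughout, and the legacy quasi-likelihood fit was added as an alternative after the data were seen, with the same counts of members called. Alternatives for the 16 members without full values, those for genes of the other lists, and fewer libraries on unchanged genes were also added then. Alternatives were library size alone, DESeq2 1.42.0 and its size factors, limma 3.58.1, 2 other filters, a replicate block, only the 6 libraries compared and each library left out. Ratios were compared by exact permutation, with figures made in Python 3.11.15.

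Members named with all values were 24 listed genes and, in each comparison, the 3 with the largest called rise and the 3 with the largest called fall. From the other lists genes were chosen by the 2 largest calls in each direction, and not every value of these is printed. Sample values of Prim1 and the ranges given for Orc2, Orc6, Gins2, Gins4, Rfc5, Pola2 and Chaf1a were chosen after their values were seen. Spans and exon lengths were from GENCODE M21 on GRCm38. Exons of 17 of the 47 genes overlap those of another gene. At the depth given, the standard error of a member's log2 fold change between 2 groups was 0.03 to 0.06.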

Additional observations from a re-analysis of the deposited data

Results flagged for a closer look

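The response to etoposide differed between the lines by edgeR's interaction test for 20 of the 31 members named with all values, 15 above and 5 below 0. Of all 47 members 63.8% and of all genes tested 54% had an interaction past the threshold. Of the 20, Rfc3 alone was named through the size of its interaction and nothing else. The interaction log2 fold change was above 0 for Cdt1 (0.23), Gmnn (0.31), Mcm2 (0.16), Mcm3 (0.27), Mcm10 (0.59), Cdc45 (0.25), Gins1 (0.45), Pola1 (0.42), Prim2 (0.44), Pole (0.22), Rpa2 (0.31), Rrm2b (0.23), Dtl (0.30), Uhrf1 (0.22) and Slbp (0.21). It was below 0 for Orc1 (−0.33), Rfc3 (−0.42), Rrm2 (−0.78), Tk1 (−0.16) and Chaf1b (−0.19).

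Among 12 other genes named from the lists by the size of this difference, it was above 0 for Mtbp (1.05), Shmt1 (1.30), E2f2 (0.87), E2f4 (0.44), Cdk1 (0.25) and Kif11 (0.37). It was below 0 for Rnaseh2c (−0.50), Pold4 (−0.90), Rb1 (−0.81), Rbl2 (−0.71), Bub1b (−0.64) and Cenpe (−1.0002).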

How the results depend on the processing

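Of 155 log2 fold changes of the named members, 112 kept their side of the threshold under every alternative and 104 of these also their sign. The other 8, never past the threshold, had values on both sides of 0 (the interactions of Cdc6, Fen1, Gins3, Rrm1 and Tyms, and Pole, Rrm2 and Slbp between untreated lines). Under library size alone 9 were reversed, with Mcm2 at 0.065, Mcm10 at 0.081, Cdc45 at 0.072 and Gins1 at 0.051 with etoposide in Null MEFs, Tk1 at 0.020 and Uhrf1 at 0.056 with etoposide in DKO MEFs, and Mcm2 at −0.038, Mcm4 at −0.014 and Mcm7 at −0.086 between untreated lines. E2f3 was also reversed in DKO MEFs (0.016), and among the other members Rfc1 in Null MEFs (0.11), Orc2 (0.12), Gins2 (0.22) and Rpa1 (0.26) in DKO MEFs, and Rfc5 (−0.10) and Pold2 (−0.12) between untreated lines. The median of the 47 genes under library size alone was 0.33 and 0.59 with etoposide in Null and DKO MEFs, −0.12 between untreated lines and 0.23 in the interaction, with 4, 2 and 4 genes lower with etoposide in Null MEFs, in DKO MEFs and in the interaction, and 7 higher between untreated lines.

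With etoposide in Null MEFs, DESeq2, its size factors and the stricter filter each called 5 genes lower, with medians of 0.21, 0.21 and 0.25, and no filter gave a median of 0.14. Between treated lines those 3 gave medians of 0.0265, 0.0263 and 0.022, and in the interaction 0.0597, 0.0596 and 0.073. Leaving out 1 library gave medians of 0.13 to 0.17 with etoposide in Null MEFs, 0.26 to 0.30 in DKO MEFs, −0.017 to −0.0032 between untreated lines (0.0012 with all libraries), 0.050 to 0.085 between treated lines and 0.080 to 0.14 in the interaction. Each such set passed the filter anew and held more genes, 15433 to 15778. On the same 15220 genes the medians were 0.15 to 0.18, 0.28 to 0.32, −0.017 to −0.00060, 0.063 to 0.084 and 0.094 to 0.14. Only the 6 libraries of a comparison gave a median of 0.27 in DKO MEFs on 15208 of the genes tested in full. By summed exon length in place of span, rho was −0.16, −0.20, 0.12, 0.097 and 0.029 across the 47 genes and −0.19, −0.17, 0.057, 0.11 and 0.07 across all genes, in the order of the comparisons. The cause was not tested.

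A replicate block left 29 genes higher and 8 lower with etoposide in Null MEFs, and among named members it changed Mcm10 in Null MEFs (−0.09, edgeR adjusted p = 0.0529), Mcm10 between treated lines (0.09, 0.0559) and the interaction of Pcna (0.12, 0.0311). Replicates of the same number did not correlate (−0.03 to 0.04 over 18 pairs, none over 0.1). This cannot show whether they were handled together, which the sources do not say.

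One line per genotype, 3 libraries per group, an unstated strand setting and bulk RNA limit these results. Most genes changed, so the scaling sets the direction of small changes.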
